A study of Mus musculus with 32 samples.

Results

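The 45 genes described here held their mean log2 level between 2 and 10 months of age in the mouse bladder and stood lower at 26 months. They were chosen on measured values, from 32285 genes in the count table. The chosen genes had a mean of 1 CPM or more at 10 months (counts scaled to library size with TMM factors), a mean log2(CPM + 0.1) at least 0.58 lower in untreated 26-month bladders than at 10 months, and a mean that differed by at most 0.2 between 2 and 10 months. Of the 14782 genes at 1 CPM or more at 10 months, 97 were lower by that much at 26 months whatever their earlier change. Genes of collagens, keratins and the mitochondrial genome and 6 named genes were left out by name, which removed 3 genes that met the limits. Each sample was the whole bladder of a single female C57BL/6 mouse, and the RNA was sequenced from total RNA. Untreated mice were taken at 2 months (young, n = 6), at 10 months (middle-aged, n = 5) and at 26 months (old, n = 6), and 3 further groups of old mice were gavaged from 21 months and taken at 26 months. The gavaged mice received water (n = 5), the vehicle of Phosal 50 PG, polyethylene glycol and ethanol (n = 4), or the senolytic pair of 5 mg/kg dasatinib and 50 mg/kg quercetin in that vehicle (D + Q, n = 6), on 3 consecutive days of each month. The untreated mice were not gavaged, so gavage and treatment separate the untreated from the gavaged old groups.

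The bladder stores urine behind an urothelium whose surface umbrella cells carry uroplakin plaques, and it empties when the detrusor, a layer of smooth muscle, contracts. Contraction follows calcium entry through voltage-gated channels and its binding to calmodulin, potassium channels set the membrane potential against which it occurs, and nerve endings in the wall release the transmitters that start it. The 45 genes include members of each of these systems: calmodulin and calcium-channel partners of muscle (Pcp4, Stac), subunits of potassium channels and of the sodium pump (Kcng1, Kcnip1, Atp1b2), synaptic and scaffold proteins (Dlgap2, Lin7b, Sv2c), proteins of epithelial transport and polarity (Rab17, Crb2), and noncoding RNAs (Hotair). In whole bladders, fewer cells of a type and less RNA per cell cannot be told apart.

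Assigned counts ran from 15088372 to 52650259 per bladder. The defining genes of urothelium, detrusor and fibroblasts were present in every group. The 16 urothelial markers summed to 6200 to 7770 CPM and the 14 detrusor markers to 30800 to 48300 CPM across the 32 bladders. Lymphoid markers separated the ages. The 8 markers of B and plasma cells summed to 59.1 to 432 CPM in middle-aged, 2690 to 17700 CPM in untreated old and 215 to 10000 CPM in vehicle-treated old bladders, and all 8 rose in untreated old against middle-aged bladders. None of the 45 genes is on that list, and the part of immune cells in the results below was not tested. The summed detrusor level of untreated old bladders, 32200 to 36900 CPM, lay inside the 32600 to 44200 CPM of middle-aged bladders except at its lower end. Urothelial sums were 6610 to 7760 CPM in middle-aged and 6210 to 6670 CPM in untreated old bladders. They were 6400 to 7260 CPM (water), 6440 to 7570 CPM (vehicle) and 6200 to 7770 CPM (D + Q) after gavage. Skeletal muscle markers summed to 596 to 911 CPM in middle-aged and 484 to 601 CPM in untreated old bladders. The part of tissue content in the results below was not tested.

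The sequences before the start sites of 3 of the genes are shown because these genes mark the range of the set. Ankrd63 had the largest fall, Lmcd1 was the most abundant per length, and Rab17 had the largest fall of the 3 genes of epithelial polarity and adhesion. Each line gives the 250 bases before the RefSeq start site, 5′ to 3′ on the gene's strand, from RefSeq on GRCm38.p6. Capitals mark matches on either strand to the TATA box with the letters TATAAA, the CCAAT box with the letters CCAAT, the GC box with the letters GGGCGG, the cAMP response element with the letters TGACGTCA or the myogenic E-box with the letters CAGCTG.
Ankrd63: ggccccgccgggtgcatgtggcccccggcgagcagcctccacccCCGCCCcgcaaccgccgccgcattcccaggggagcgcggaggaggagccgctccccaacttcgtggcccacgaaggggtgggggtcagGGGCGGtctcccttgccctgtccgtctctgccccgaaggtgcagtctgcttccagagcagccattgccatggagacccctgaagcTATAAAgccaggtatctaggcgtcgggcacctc
Lmcd1: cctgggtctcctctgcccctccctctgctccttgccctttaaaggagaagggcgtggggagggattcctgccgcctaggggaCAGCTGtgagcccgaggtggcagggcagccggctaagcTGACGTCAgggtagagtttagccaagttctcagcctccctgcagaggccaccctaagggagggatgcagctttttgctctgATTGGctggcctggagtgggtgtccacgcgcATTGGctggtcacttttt
Rab17: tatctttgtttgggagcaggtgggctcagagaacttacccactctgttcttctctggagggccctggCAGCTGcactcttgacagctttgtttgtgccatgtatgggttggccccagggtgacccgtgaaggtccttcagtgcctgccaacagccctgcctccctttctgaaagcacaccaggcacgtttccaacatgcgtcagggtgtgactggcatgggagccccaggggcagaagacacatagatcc
The Ankrd63 sequence lies at chr2:118703964-118704213 on the minus strand, with a TATA box that begins 33 bases before the start and GC boxes that begin 118 and 206 bases before it. The Lmcd1 sequence lies at chr6:112273508-112273757 on the plus strand, with a cAMP response element 130 bases and a myogenic E-box 168 bases before the start. The Rab17 sequence lies at chr1:90967668-90967917 on the minus strand, with a myogenic E-box 183 bases before the start. The count file extends Rab17 beyond that RefSeq start, to base 90969661, so this window lies inside the counted gene.

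Promoter windows, from 250 bases before to 50 bases after a start, were matched by symbol for 34 of the 45 genes and compared with those of 27025 genes. GC boxes stood in the windows of 18 of 34 members (52.9%) against 38.2% of all genes, and TATA boxes in those of 2 members (5.88%), Ankrd63 and Abca4, against 15.7%. CCAAT boxes were as frequent in both, at 41.2% and 41.1%. The cAMP response element was found in Lmcd1 alone among the members (2.94% against 2.03%), and the letters TGACG, which that element contains, in 17.6% against 23.0%. Shares for the myogenic E-box were 17.6% and 18.3%, for the clock E-box (CACGTG) 5.88% and 8.09%, and for the AP-1 site (TGACTCA) 2.94% and 5.95%. The remaining letters searched, on both strands, were the TEAD site GGAATG (14.7% and 16.6%), the steroid receptor site AGAACA (17.6% and 21.3%), the estrogen receptor site AGGTCA (11.8% and 18.1%), the GATA box AGATAA (5.88% and 12.7%) and the SMAD box GTCTAGAC (0% and 0.248%). Across the 13 motifs the share in members minus that in all genes ran from -9.78 to 14.7 percentage points. The members' windows had a median GC content of 56.3% against 52.7% over all 32851 windows. The 27025 genes were not limited to those expressed in the bladder, while every member had to reach 1 CPM at 10 months, so the 2 sets are not alike. These shares describe letters in a window, with no test.

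The values that chose the genes follow as a description. The difference between untreated old and middle-aged means ran from -2.17 for Ankrd63 to -0.58 for Hotair on the log2 scale, and that between middle-aged and young means from -0.19 to 0.20. Gm10432 (-0.5838) and Hotair (-0.5826) lay just inside the limit for the fall, and Kcnj5 (-0.5788) and Vps37d (-0.574) just outside it. Grip2 (0.1996) and Akap6 (0.1961) lay just inside the limit for the earlier change, and Lrrc4 (-0.2249) and Arntl (-0.2251) just outside it. The median difference over the 45 genes from their middle-aged mean was -0.33 to 0.27 in single young bladders, -0.12 to 0.12 in middle-aged and -0.88 to -0.49 in untreated old bladders. Young replicate 1 gave the lowest of the young values and was the lowest young bladder for 22 of the 45 genes. By edgeR's quasi-likelihood test with Benjamini-Hochberg adjustment, 40 of the 45 genes were called lower at 26 months without gavage than at 10 months, where 11.0% of 17156 genes tested were called lower. None was called between middle-aged and young bladders, where 10.8% of 16754 genes were called in either direction and 1 member had an unadjusted p under 0.05. Both contrasts entered the choice, so nothing is read from these counts.

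**Figure D1:**
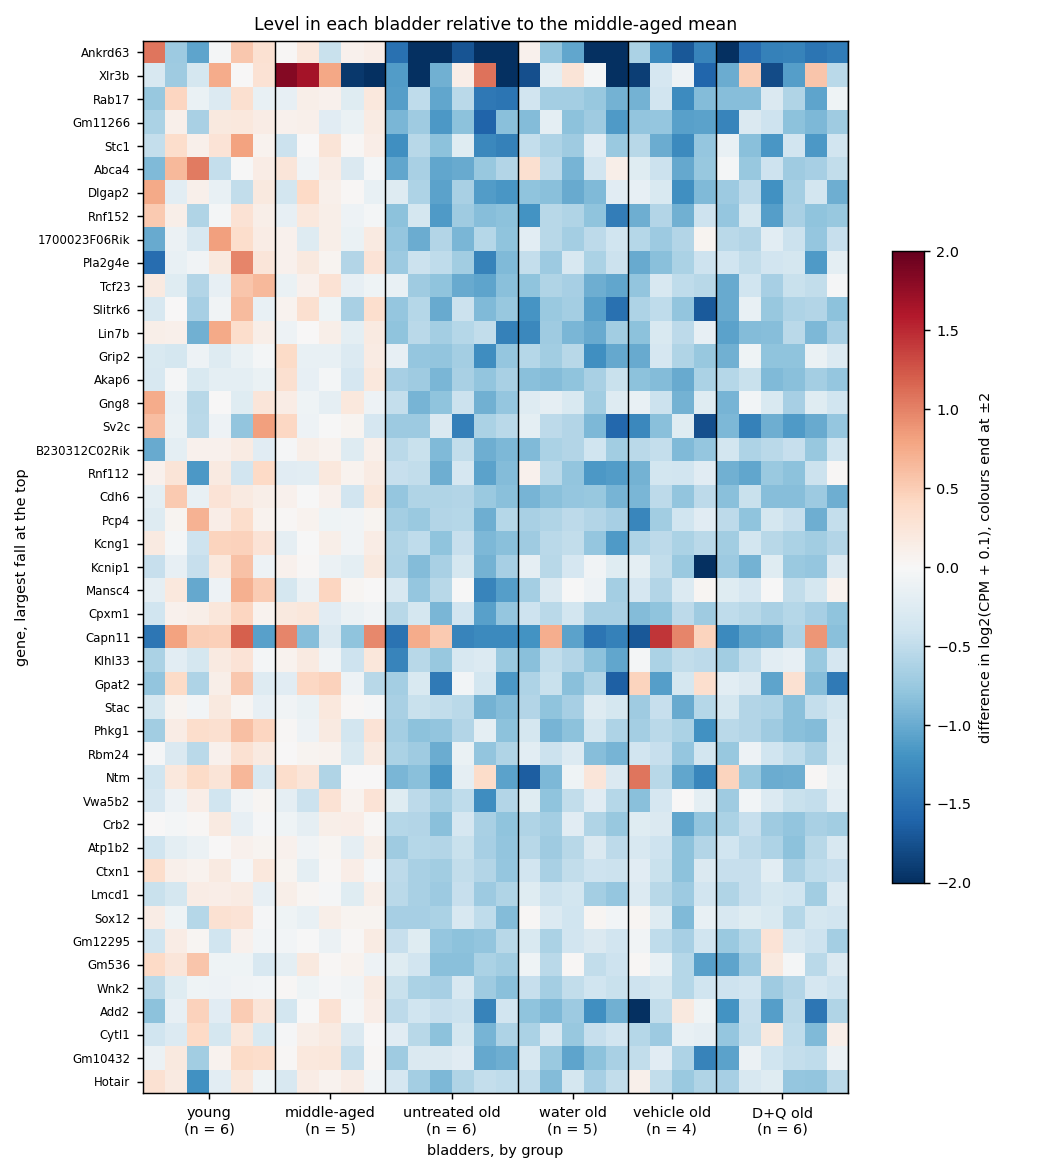
Difference of log2(CPM + 0.1) from the middle-aged mean for each of the 45 genes (rows, largest fall at the top) in each of the 32 bladders (columns, by group). Blue is lower and red higher, and the colours end at a difference of 2. The blue of the untreated old block, which the choice of genes fixes, is also seen in most cells of the 3 gavaged blocks, while Xlr3b and Capn11 vary in every block.

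The gavaged old mice, which entered the choice only through the TMM factors, show how these genes stood in other bladders of 26 months. The median difference over the 45 genes from the middle-aged mean was -0.68 to -0.55 in the 5 water-treated, -0.67 to -0.49 in the 4 vehicle-treated and -0.71 to -0.42 in the 6 D + Q-treated bladders. Each of the 15 gavaged bladders was thus below every young and middle-aged bladder, whose lowest value was -0.33. The group medians over all 14782 expressed genes differed from the middle-aged ones by -0.02 in each gavaged group. These comparisons share the 5 middle-aged bladders with the choice of the genes and with each other. The young bladders also entered the choice.

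**Figure D2:**
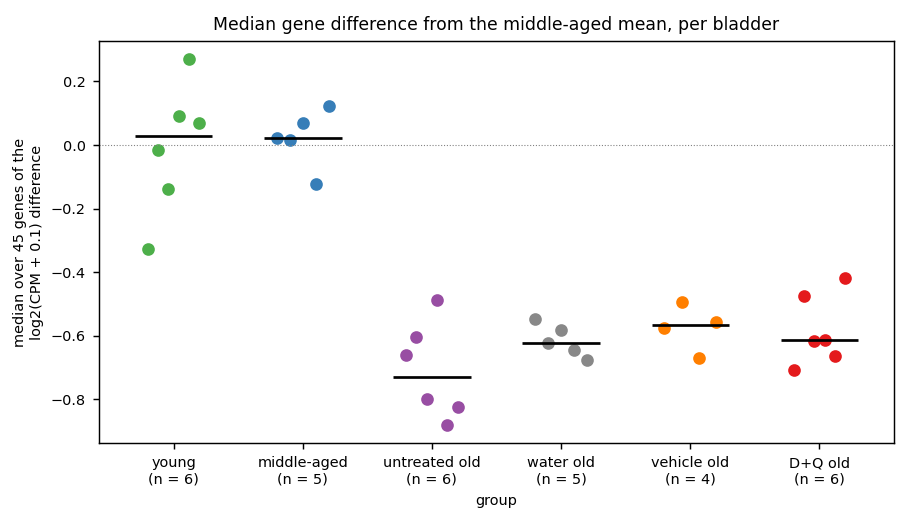
Median over the 45 genes of the difference in log2(CPM + 0.1) from the middle-aged mean, 1 point per bladder and a line at each group's median. The 15 gavaged old bladders lie between -0.71 and -0.42, below the young (-0.33 to 0.27) and middle-aged bladders (-0.12 to 0.12).

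Against middle-aged bladders, 30 of the 45 genes fell in water-treated old bladders, where 5.23% of 17023 genes tested were called lower. In vehicle-treated old bladders 16 of 45 fell, against 1.52% of 17162 genes, and in D + Q-treated old bladders 29 of 45 fell, against 4.55% of 16992 genes. Here and below, a gene that fell was called lower. No member was called higher in any of them, and the estimate was below 0 for 45, 44 and 45 members, called or not. All 45 members passed the filter on low counts in each comparison. The median log2 fold change of the members was -0.60, -0.55 and -0.55 in the order water, vehicle and D + Q, and that of all genes tested -0.0034, 0.0015 and -0.0028. A call in all 3 comparisons was made for 15 members, in 2 for 10, in 1 for 10 and in none for 10. No share over all genes is given for these joint calls. The 3 comparisons use the same middle-aged bladders, so a joint call is not 3 separate results. The choice of the genes used those bladders too, so part of the excess of calls over all genes is built in. The vehicle count moved with single bladders. It was 10, 9, 8 and 6 without middle-aged replicates 1, 2, 3 and 5, and 23 without vehicle-treated replicate 1.

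In 12 of the 45 genes (26.7%) each of the 15 gavaged bladders was below each of the 5 middle-aged bladders, which held for 1.49% of the 14782 expressed genes. The choice of the genes used the same 5 middle-aged bladders, so part of this excess over all genes is built in. These were Rnf152, Akap6, B230312C02Rik, Cdh6, Pcp4, Kcng1, Cpxm1, Stac, Crb2, Atp1b2, Ctxn1 and Wnk2. In the comparisons that follow, a value after ± is the standard error (SE) of a log2 fold change, and adjusted p-values come from the same test over all genes. Akap6, Kcng1, Wnk2, Cdh6, Add2, Kcnip1, Klhl33 and Capn11, shown with their values, were picked after those values were seen.

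**Figure D3:**
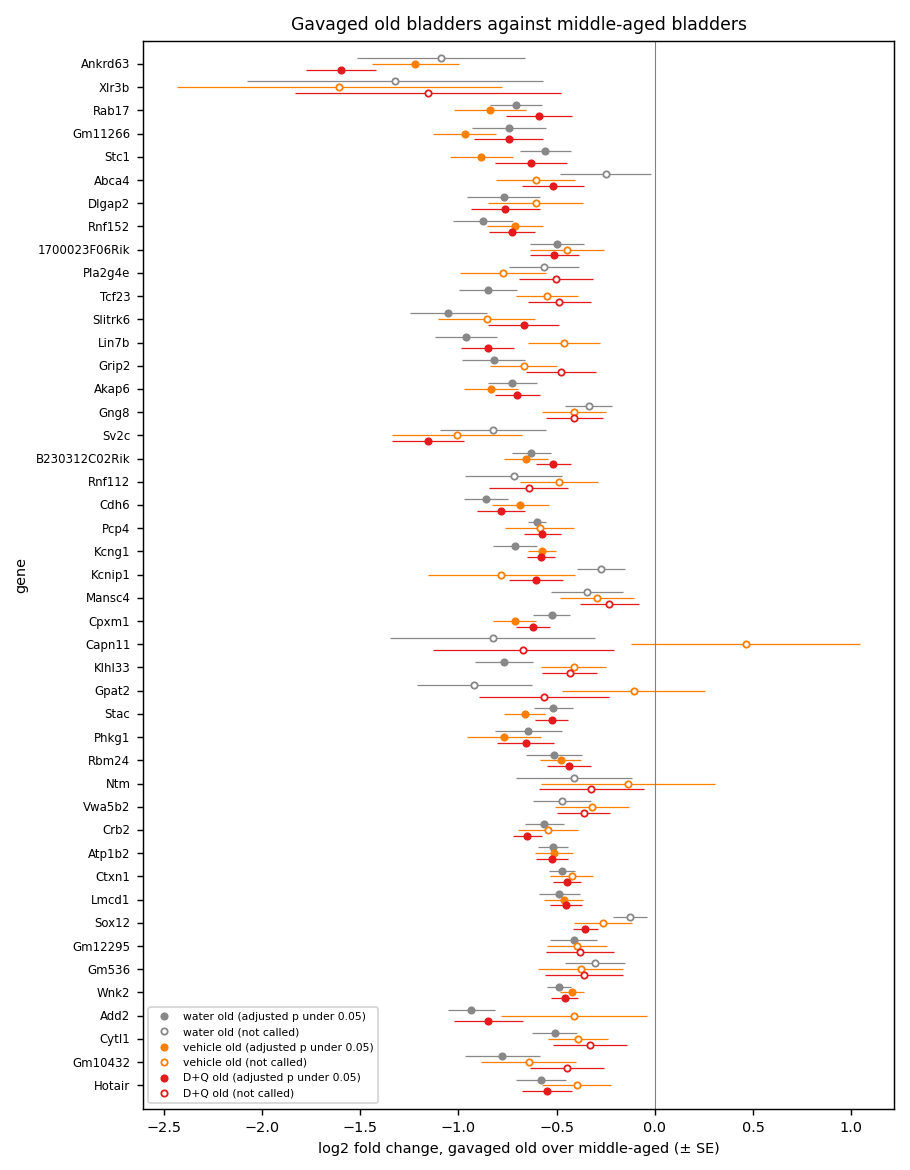
Log2 fold change of each gene in water-treated (grey), vehicle-treated (orange) and D + Q-treated (red) old bladders over middle-aged bladders, with bars of 1 SE. Filled points have an adjusted p under 0.05, which holds for 30, 16 and 29 of the 45 genes, and Capn11 in vehicle-treated bladders is the only point above 0.

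Genes of muscle and of calcium signalling formed a group of 7, of which 6, 5 and 6 fell in water-treated, vehicle-treated and D + Q-treated old bladders. The group includes Capn11, which was called in none of the 3, was at 0.46 in vehicle-treated bladders, and is described further below. Lmcd1, a LIM-domain co-regulator of transcription in muscle, was the most abundant member per length, with a mean TPM, which divides counts by exon length, of 450.0 in middle-aged bladders. It measured 163 to 248 CPM (median 219.7) in young, 186, 217, 227, 239 and 241 CPM in middle-aged, and 133 to 160.1 CPM (median 143) in untreated old bladders. In the gavaged mice it measured 129, 138, 163, 171 and 188 CPM in water-treated, 133, 151, 169.5 and 183 CPM in vehicle-treated, and 136 to 182 CPM (median 164) in D + Q-treated old bladders. The untreated old bladders were all below the young and middle-aged ones, while the highest water-treated bladder was just above the lowest middle-aged one. Against middle-aged bladders, the log2 fold change of Lmcd1 was -0.49 ± 0.11 (adjusted p = 0.011) in water-treated, -0.46 ± 0.10 (adjusted p = 0.0316) in vehicle-treated and -0.45 ± 0.08 (adjusted p = 0.00273) in D + Q-treated old bladders. Lmcd1 lost its vehicle-treated call without middle-aged replicate 1, 2, 3 or 5 or vehicle-treated replicate 2, 3 or 4 (adjusted p from 0.05 to 0.0852).

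Pcp4, a small protein that binds calmodulin and the only member among the 14 detrusor markers, was next per length, at 436 TPM in middle-aged bladders. Its levels were 107 to 207 CPM (median 137) in young, 121, 122, 129.9, 132 and 134 CPM in middle-aged, and 64.6 to 86.2 CPM (median 82.5) in untreated old bladders. Gavaged old mice had 80.3, 81.0, 84.1, 84.6 and 89.2 CPM in water-treated, 51.5, 79.1, 97.1 and 108 CPM in vehicle-treated, and 64.6 to 100.3 CPM (median 90.1) in D + Q-treated old bladders. No old bladder reached a middle-aged one, and the spread was wide in the vehicle group, where replicate 1 was lowest. For Pcp4 the log2 fold change was -0.60 ± 0.04 (adjusted p = 6.22e-05) in water-treated, -0.59 ± 0.18 (adjusted p = 0.0874) in vehicle-treated and -0.57 ± 0.09 (adjusted p = 0.00149) in D + Q-treated old bladders. Pcp4 gained its vehicle-treated call without vehicle-treated replicate 1 (adjusted p = 0.02). Pcp4 gained its vehicle-treated call in a single fit of all 6 groups (adjusted p = 0.0196), and gained its vehicle-treated call with DESeq2 (adjusted p = 0.00834). Akap6, which anchors protein kinase A at the nuclear envelope and sarcoplasmic reticulum of muscle, measured 42.4 to 52.5 CPM (median 46.3) in young, 42.0, 47.3, 51.6, 61.7 and 66.6 CPM in middle-aged, and 28.1 to 33.8 CPM (median 33.0) in untreated old bladders. The gavaged levels were 29.0, 29.6, 30.4, 34.0 and 39.0 CPM in water-treated, 26.3, 29.0, 30.1 and 34.2 CPM in vehicle-treated, and 28.7 to 39.0 CPM (median 32.04) in D + Q-treated old bladders, all below the middle-aged ones. For Akap6 the log2 fold change was -0.73 ± 0.12 (adjusted p = 0.00334) in water-treated, -0.83 ± 0.14 (adjusted p = 0.0122) in vehicle-treated and -0.70 ± 0.12 (adjusted p = 0.00154) in D + Q-treated old bladders.

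Stac, an adaptor of voltage-gated calcium channels, fell in all 3 gavaged groups, with log2 fold changes of -0.52, -0.66 and -0.52 in the order water, vehicle and D + Q. Rbm24, a splicing regulator of muscle (-0.51, -0.48 and -0.44), and Phkg1, the catalytic subunit of phosphorylase kinase in muscle (-0.64, -0.77 and -0.66), also fell in all 3. Exons of Phkg1 overlap those of Sumf2 on the other strand.

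Of the 4 genes of ion transport and its control, 3, 3 and all 4 fell in the water, vehicle and D + Q groups. Kcng1 encodes a modifier subunit of voltage-gated potassium channels, which carries no current alone. It measured 32.4 to 60.0 CPM (median 50.7) in young, 38.1, 41.2, 43.1, 47.1 and 48.0 CPM in middle-aged, and 23.1 to 31.5 CPM (median 26.6) in untreated old bladders. Gavaged bladders had 19.7, 25.3, 26.6, 29.8 and 30.9 CPM in water-treated, 27.8, 28.2, 29.8 and 30.0 CPM in vehicle-treated, and 26.6 to 33.6 CPM (median 28.5) in D + Q-treated old bladders. The 4 vehicle-treated bladders lay close together, and every old bladder was below every middle-aged one. For Kcng1 the log2 fold change was -0.71 ± 0.11 (adjusted p = 0.00212) in water-treated, -0.57 ± 0.07 (adjusted p = 0.0058) in vehicle-treated and -0.58 ± 0.07 (adjusted p = 0.000205) in D + Q-treated old bladders. Atp1b2, the beta 2 subunit of the sodium-potassium pump, fell in all 3, with log2 fold changes of -0.52, -0.51 and -0.52. Kcnip1, a calcium-binding partner of A-type potassium channels, measured 2.94, 3.43, 3.67, 3.84 and 4.14 CPM in water-treated, 0.517, 2.55, 3.05 and 3.78 CPM in vehicle-treated, and 2.21 to 3.65 CPM (median 2.58) in D + Q-treated old bladders, against 3.79 to 4.99 CPM in middle-aged bladders. Vehicle-treated replicate 4 gave the low value of its group, and the log2 fold change of Kcnip1 was -0.27 (adjusted p = 0.168), -0.78 (adjusted p = 0.27) and -0.61 (adjusted p = 0.0121) in the order water, vehicle and D + Q.

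Wnk2, a kinase that regulates chloride cotransport, measured 98.4 to 138 CPM (median 134) in young, 134, 136, 139.5, 145 and 159 CPM in middle-aged, and 79.6 to 114 CPM (median 90.8) in untreated old bladders. Its levels after gavage were 89.0, 102, 104, 104 and 108 CPM in water-treated, 95.9, 106, 108 and 111 CPM in vehicle-treated, and 86.5 to 113 CPM (median 106) in D + Q-treated old bladders. The middle-aged bladders were above every old bladder, and the lowest young bladder lay among the old ones. For Wnk2 the log2 fold change was -0.49 ± 0.06 (adjusted p = 0.000742) in water-treated, -0.42 ± 0.06 (adjusted p = 0.00913) in vehicle-treated and -0.46 ± 0.07 (adjusted p = 0.000842) in D + Q-treated old bladders.

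The largest group, 10 genes known from synapses, axons and the membrane skeleton, had 6, 1 and 7 members called lower in the water, vehicle and D + Q groups. Its median log2 fold changes were -0.82, -0.53 and -0.71. Ankrd63, an ankyrin-repeat protein, measured 2.03 to 9.21 CPM (median 4.81) in young, 3.18, 4.42, 4.61, 4.77 and 5.02 CPM in middle-aged, and 0.509 to 1.49 CPM (median 0.913) in untreated old bladders. In gavaged mice it was at 0.540, 0.953, 2.07, 2.48 and 4.63 CPM in water-treated, 1.27, 1.69, 1.74 and 2.75 CPM in vehicle-treated, and 0.782 to 1.66 CPM (median 1.55) in D + Q-treated old bladders. The untreated old and D + Q-treated bladders were all below the lowest young bladder, while water-treated replicate 1, at 4.63 CPM, lay among the middle-aged ones. For Ankrd63 the log2 fold change was -1.09 ± 0.43 (adjusted p = 0.121) in water-treated, -1.22 ± 0.22 (adjusted p = 0.0178) in vehicle-treated and -1.60 ± 0.18 (adjusted p = 0.000114) in D + Q-treated old bladders. Ankrd63 gained its water-treated call without water-treated replicate 1 (adjusted p = 0.023), and lost its vehicle-treated call without middle-aged replicate 2 or 5 (adjusted p from 0.0506 to 0.0565). Ankrd63 lost its vehicle-treated call in a single fit of all 6 groups (adjusted p = 0.0745).

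Dlgap2, a scaffold of the postsynaptic density, measured 2.44 to 5.94 CPM (median 3.42) in young, 2.65, 3.12, 3.51, 3.74 and 4.61 CPM in middle-aged, and 1.48 to 2.88 CPM (median 1.89) in untreated old bladders. The gavaged groups had 1.67, 1.82, 1.90, 1.95 and 2.96 CPM in water-treated, 1.42, 1.83, 2.78 and 3.10 CPM in vehicle-treated, and 1.43 to 2.68 CPM (median 2.09) in D + Q-treated old bladders. Each old group had a bladder inside the middle-aged range. For Dlgap2 the log2 fold change was -0.77 ± 0.19 (adjusted p = 0.019) in water-treated, -0.61 ± 0.24 (adjusted p = 0.185) in vehicle-treated and -0.76 ± 0.17 (adjusted p = 0.0119) in D + Q-treated old bladders. Lin7b, a PDZ-domain scaffold of synapses and epithelial junctions, measured 0.881 to 3.11 CPM (median 1.97) in young, 1.55, 1.67, 1.81, 1.97 and 2.07 CPM in middle-aged, and 0.647 to 1.26 CPM (median 1.14) in untreated old bladders. Levels under gavage were 0.683, 0.852, 0.908, 1.07 and 1.08 CPM in water-treated, 0.975, 1.23, 1.45 and 1.60 CPM in vehicle-treated, and 0.812 to 1.22 CPM (median 0.950) in D + Q-treated old bladders, with 1 vehicle-treated bladder in the middle-aged range. For Lin7b the log2 fold change was -0.96 ± 0.16 (adjusted p = 0.00285) in water-treated, -0.46 ± 0.18 (adjusted p = 0.183) in vehicle-treated and -0.85 ± 0.14 (adjusted p = 0.00117) in D + Q-treated old bladders. Exons of Lin7b overlap the transcripts Mtag2 and Gm45619 on the other strand.

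Sv2c, a glycoprotein of synaptic vesicles, had the lowest level per length of all members, 0.380 TPM in middle-aged bladders, and as few as 5 counts in a bladder. It measured 0.558 to 1.91 CPM (median 0.948) in young, 0.800, 0.954, 1.02, 1.07 and 1.41 CPM in middle-aged, and 0.340 to 0.830 CPM (median 0.610) in untreated old bladders. The gavaged levels were 0.284, 0.507, 0.653, 0.694 and 0.894 CPM in water-treated, 0.235, 0.366, 0.535 and 0.858 CPM in vehicle-treated, and 0.346 to 0.564 CPM (median 0.470) in D + Q-treated old bladders. The D + Q-treated bladders were all below the middle-aged ones, whereas water-treated and vehicle-treated bladders overlapped them. For Sv2c the log2 fold change was -0.82 ± 0.27 (adjusted p = 0.0663) in water-treated, -1.01 ± 0.33 (adjusted p = 0.114) in vehicle-treated and -1.16 ± 0.18 (adjusted p = 0.00111) in D + Q-treated old bladders. Sv2c gained its water-treated call without water-treated replicate 1 (adjusted p = 0.0404), and gained its vehicle-treated call without vehicle-treated replicate 3 (adjusted p = 0.0411). Sv2c gained its water-treated call with DESeq2 (adjusted p = 0.0418). Slitrk6, a transmembrane protein of developing neurons and sensory epithelium, measured 12.1 to 29.9 CPM (median 17.9) in young, 12.2, 18.2, 20.3, 24.1 and 24.4 CPM in middle-aged, and 9.51 to 14.3 CPM (median 11.3) in untreated old bladders. In the gavaged mice the levels were 6.76, 8.46, 9.01, 11.4 and 11.9 CPM in water-treated, 5.96, 11.1, 12.6 and 13.6 CPM in vehicle-treated, and 9.53 to 17.4 CPM (median 11.9) in D + Q-treated old bladders. The water-treated bladders were all below the middle-aged ones. For Slitrk6 the log2 fold change was -1.05 ± 0.20 (adjusted p = 0.00519) in water-treated, -0.86 ± 0.25 (adjusted p = 0.0779) in vehicle-treated and -0.67 ± 0.18 (adjusted p = 0.0274) in D + Q-treated old bladders. Slitrk6 gained its vehicle-treated call without middle-aged replicate 4 (adjusted p = 0.0467), and lost its D + Q-treated call without middle-aged replicate 1, 2 or 5 or D + Q-treated replicate 1 or 3 (adjusted p from 0.0542 to 0.0852). Slitrk6 gained its vehicle-treated call in a single fit of all 6 groups (adjusted p = 0.019), and gained its vehicle-treated call with DESeq2 (adjusted p = 0.00495).

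Ctxn1, or cortexin, is a membrane protein first known from cortical neurons. It measured 44.5 to 57.4 CPM (median 49.9) in young, 39.2, 44.7, 46.1, 46.7 and 49.8 CPM in middle-aged, and 26.3 to 32.2 CPM (median 29.5) in untreated old bladders. Gavaged old mice had 28.8, 32.1, 33.5, 33.8 and 34.8 CPM in water-treated, 25.4, 33.0, 36.9 and 38.5 CPM in vehicle-treated, and 28.9 to 38.9 CPM (median 32.7) in D + Q-treated old bladders. All old bladders were below the lowest middle-aged bladder. For Ctxn1 the log2 fold change was -0.47 ± 0.07 (adjusted p = 0.00151) in water-treated, -0.42 ± 0.11 (adjusted p = 0.0574) in vehicle-treated and -0.45 ± 0.07 (adjusted p = 0.00104) in D + Q-treated old bladders. Ctxn1 gained its vehicle-treated call without vehicle-treated replicate 1 (adjusted p = 0.0217). Ctxn1 gained its vehicle-treated call in a single fit of all 6 groups (adjusted p = 0.00541), and gained its vehicle-treated call with DESeq2 (adjusted p = 0.00531). Add2, beta-adducin of the spectrin-actin skeleton, measured 9.86, 11.8, 12.3, 13.1 and 13.9 CPM in water-treated, 4.71, 16.5, 21.8 and 26.5 CPM in vehicle-treated, and 8.40 to 16.8 CPM (median 13.0) in D + Q-treated old bladders, against 17.9 to 28.1 CPM in middle-aged bladders. It was low in all water-treated and D + Q-treated bladders, while the vehicle-treated bladders spread from below them to within the middle-aged range. Of the remaining members, Grip2, a scaffold of glutamate receptors, was at -0.82 (adjusted p = 0.00691) in water-treated, -0.67 (adjusted p = 0.0534) in vehicle-treated and -0.48 (adjusted p = 0.107) in D + Q-treated bladders. Gng8, a G protein gamma subunit, and Ntm, an adhesion protein of neurons, were called in none of the 3, with log2 fold changes from -0.41 to -0.34 and from -0.41 to -0.14.

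**Figure D4:**
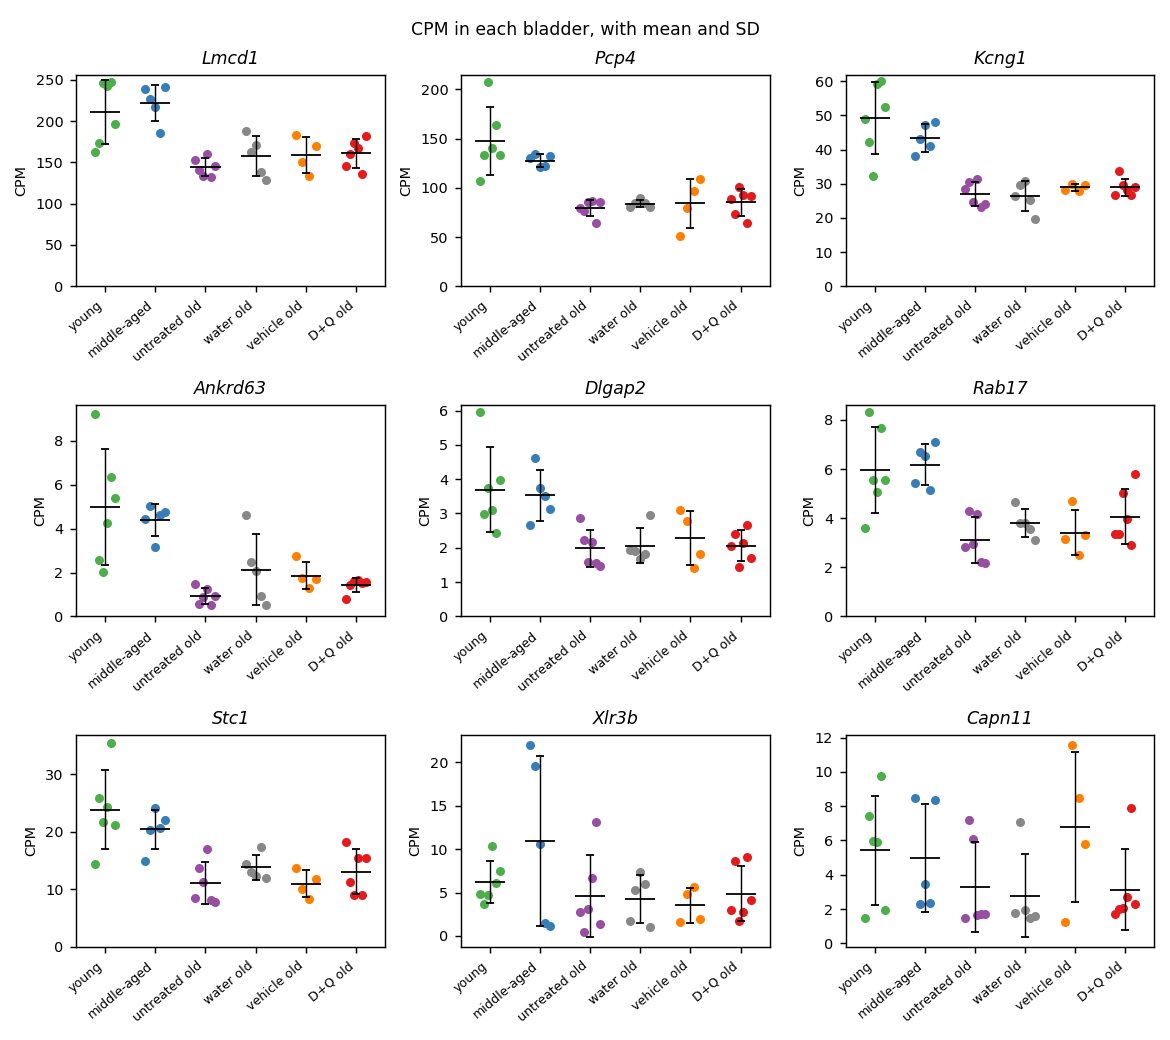
CPM of 9 genes in each bladder by group, on linear axes, with the mean as a line and the SD as a bar. Lmcd1, Pcp4 and Kcng1 separate old from middle-aged bladders in most groups, Ankrd63, Dlgap2, Rab17 and Stc1 are lower with some overlap, and Xlr3b and Capn11 each have low and high bladders within a group.

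The 3 proteins of epithelial polarity and adhesion gave 3, 2 and 3 calls in the water, vehicle and D + Q groups. Rab17, a small GTPase of transcytosis in epithelial cells, measured 3.60 to 8.31 CPM (median 5.55) in young, 5.15, 5.44, 6.53, 6.68 and 7.11 CPM in middle-aged, and 2.17 to 4.29 CPM (median 2.88) in untreated old bladders. Gavaged levels were 3.13, 3.57, 3.79, 3.80 and 4.68 CPM in water-treated, 2.50, 3.15, 3.33 and 4.68 CPM in vehicle-treated, and 2.91 to 5.79 CPM (median 3.68) in D + Q-treated old bladders. All water-treated and vehicle-treated bladders were below the lowest middle-aged bladder, and 1 D + Q-treated bladder was not. For Rab17 the log2 fold change was -0.71 ± 0.13 (adjusted p = 0.00518) in water-treated, -0.84 ± 0.18 (adjusted p = 0.0323) in vehicle-treated and -0.59 ± 0.17 (adjusted p = 0.0364) in D + Q-treated old bladders. Rab17 lost its vehicle-treated call without middle-aged replicate 1, 2, 3 or 5 or vehicle-treated replicate 3 or 4 (adjusted p from 0.0567 to 0.0882), and lost its D + Q-treated call without middle-aged replicate 2, 3 or 5 or D + Q-treated replicate 1, 2, 4 or 5 (adjusted p from 0.0657 to 0.103). Rab17 lost its D + Q-treated call in a single fit of all 6 groups (adjusted p = 0.094). Cdh6, a classical cadherin, measured 7.32 to 12.0 CPM (median 9.31) in young, 6.39, 8.30, 8.88, 8.91 and 9.79 CPM in middle-aged, and 4.66 to 5.52 CPM (median 5.21) in untreated old bladders. Gavaged old mice had 4.35, 4.36, 4.64, 4.88 and 4.91 CPM in water-treated, 4.41, 4.78, 5.81 and 5.82 CPM in vehicle-treated, and 4.21 to 6.14 CPM (median 4.63) in D + Q-treated old bladders. Its middle-aged range lay above all 15 gavaged bladders. For Cdh6 the log2 fold change was -0.86 ± 0.11 (adjusted p = 0.00103) in water-treated, -0.69 ± 0.14 (adjusted p = 0.0297) in vehicle-treated and -0.78 ± 0.12 (adjusted p = 0.000947) in D + Q-treated old bladders. Crb2, a Crumbs protein of apical membranes, fell in the water (-0.56) and D + Q groups (-0.65), and was at -0.54 (adjusted p = 0.0723) with vehicle. Its exons overlap those of Dennd1a on the other strand.

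Among the secreted proteins, Stc1, a glycoprotein hormone of calcium and phosphate balance, measured 14.4 to 35.4 CPM (median 23.0) in young, 14.9, 20.4, 20.6, 22.1 and 24.1 CPM in middle-aged, and 7.80 to 16.9 CPM (median 9.91) in untreated old bladders. The levels after gavage were 11.9, 12.3, 13.1, 14.4 and 17.3 CPM in water-treated, 8.23, 10.0, 11.8 and 13.8 CPM in vehicle-treated, and 8.90 to 18.1 CPM (median 13.3) in D + Q-treated old bladders. Water-treated and D + Q-treated bladders overlapped the lowest middle-aged bladder, and the vehicle-treated ones did not. For Stc1 the log2 fold change was -0.56 ± 0.13 (adjusted p = 0.0153) in water-treated, -0.88 ± 0.16 (adjusted p = 0.018) in vehicle-treated and -0.63 ± 0.18 (adjusted p = 0.0412) in D + Q-treated old bladders. Stc1 lost its vehicle-treated call without middle-aged replicate 3 or 5 (adjusted p from 0.0508 to 0.0575), and lost its D + Q-treated call without middle-aged replicate 2, 3, 4 or 5 or D + Q-treated replicate 2, 3 or 5 (adjusted p from 0.0684 to 0.104). Stc1 lost its water-treated and D + Q-treated calls in a single fit of all 6 groups (adjusted p = 0.115 and 0.074). Cpxm1, a secreted carboxypeptidase-like protein, came next after Pcp4 per length, at 136 TPM in middle-aged bladders. It measured 70.7 to 125 CPM (median 100.3) in young, 80.0, 85.8, 88.7, 107 and 109 CPM in middle-aged, and 44.1 to 72.8 CPM (median 59.1) in untreated old bladders. After gavage it was at 59.6, 59.8, 64.4, 70.2 and 72.1 CPM in water-treated, 51.3, 53.6, 57.0 and 65.0 CPM in vehicle-treated, and 53.7 to 65.7 CPM (median 61.2) in D + Q-treated old bladders, with no overlap with middle-aged bladders. For Cpxm1 the log2 fold change was -0.53 ± 0.10 (adjusted p = 0.00451) in water-treated, -0.71 ± 0.11 (adjusted p = 0.0102) in vehicle-treated and -0.62 ± 0.09 (adjusted p = 0.000456) in D + Q-treated old bladders. Cytl1, a cytokine-like protein, was at -0.51 (adjusted p = 0.0126) in water-treated, -0.39 (adjusted p = 0.175) in vehicle-treated and -0.33 (adjusted p = 0.308) in D + Q-treated bladders.

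Transcription factors and ubiquitin ligases made up 4 members, with 2, 1 and 2 called. Rnf152, a ubiquitin ligase of the lysosome, measured 8.81 to 19.3 CPM (median 14.5) in young, 11.9, 12.4, 13.0, 14.5 and 15.4 CPM in middle-aged, and 6.03 to 10.5 CPM (median 7.53) in untreated old bladders. The gavaged groups were at 5.06, 5.78, 7.61, 8.80 and 9.05 CPM in water-treated, 6.73, 6.79, 8.91 and 10.1 CPM in vehicle-treated, and 6.14 to 10.4 CPM (median 7.83) in D + Q-treated old bladders, all below the middle-aged bladders. For Rnf152 the log2 fold change was -0.87 ± 0.15 (adjusted p = 0.00384) in water-treated, -0.71 ± 0.14 (adjusted p = 0.0248) in vehicle-treated and -0.73 ± 0.12 (adjusted p = 0.00128) in D + Q-treated old bladders. Rnf152 lost its vehicle-treated call without middle-aged replicate 2, 3 or 5 (adjusted p from 0.064 to 0.0699). Sox12, a SoxC transcription factor, had the smallest difference of the set over the 15 gavaged bladders (-0.27 from the middle-aged mean). It measured 17.7 to 32.5 CPM (median 27.3) in young, 23.7, 24.7, 27.3, 27.4 and 28.4 CPM in middle-aged, and 14.4 to 21.0 CPM (median 16.7) in untreated old bladders. In gavaged mice it was at 19.9, 21.6, 25.1, 26.8 and 26.8 CPM in water-treated, 14.2, 21.9, 23.8 and 26.9 CPM in vehicle-treated, and 17.7 to 22.1 CPM (median 20.7) in D + Q-treated old bladders. Untreated old and D + Q-treated bladders were all below the middle-aged ones, and 3 of 5 water-treated bladders were inside the middle-aged range. For Sox12 the log2 fold change was -0.12 ± 0.09 (adjusted p = 0.389) in water-treated, -0.26 ± 0.15 (adjusted p = 0.346) in vehicle-treated and -0.35 ± 0.06 (adjusted p = 0.00245) in D + Q-treated old bladders. Sox12 lost its D + Q-treated call in a single fit of all 6 groups (adjusted p = 0.114). Tcf23, a helix-loop-helix factor, was at -0.85 (adjusted p = 0.00339) in water-treated, -0.55 (adjusted p = 0.0747) in vehicle-treated and -0.49 (adjusted p = 0.0703) in D + Q-treated bladders, and Rnf112 was called in none, with log2 fold changes of -0.72, -0.49 and -0.64.

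The lipid genes gave the fewest calls, 0, 0 and 1 of 3. Their median log2 fold changes, -0.56, -0.61 and -0.52 in the order water, vehicle and D + Q, were near those of all members. Pla2g4e, a cytosolic phospholipase that makes N-acyl-phosphatidylethanolamines, measured 0.706 to 4.49 CPM (median 2.33) in young, 1.44, 2.30, 2.36, 2.54 and 2.702 CPM in middle-aged, and 0.824 to 1.63 CPM (median 1.31) in untreated old bladders. Gavaged bladders were at 1.31, 1.40, 1.58, 1.62 and 1.76 CPM in water-treated, 1.05, 1.20, 1.40 and 1.64 CPM in vehicle-treated, and 0.959 to 1.93 CPM (median 1.66) in D + Q-treated old bladders. Middle-aged replicate 4 was the low bladder of its group, inside the range of the old ones. For Pla2g4e the log2 fold change was -0.56 ± 0.18 (adjusted p = 0.0577) in water-treated, -0.77 ± 0.22 (adjusted p = 0.0737) in vehicle-treated and -0.50 ± 0.19 (adjusted p = 0.106) in D + Q-treated old bladders. Pla2g4e gained its water-treated call without middle-aged replicate 4 (adjusted p = 0.0102), and gained its vehicle-treated call without middle-aged replicate 4 (adjusted p = 0.0369), and gained its D + Q-treated call without middle-aged replicate 4 (adjusted p = 0.0278). Pla2g4e gained its water-treated and vehicle-treated calls with DESeq2 (adjusted p = 0.0341 and 0.0166). Exons of Pla2g4e overlap Gm13997 on the same strand, so some of its counts are uncertain. Abca4, a retinoid transporter known from photoreceptors, measured 1.15 to 4.61 CPM (median 2.33) in young, 1.78, 2.10, 2.15, 2.46 and 2.62 CPM in middle-aged, and 1.02 to 1.43 CPM (median 1.15) in untreated old bladders. After gavage the levels were 1.11, 1.50, 1.66, 2.39 and 2.79 CPM in water-treated, 1.03, 1.27, 1.60 and 1.85 CPM in vehicle-treated, and 1.26 to 2.13 CPM (median 1.45) in D + Q-treated old bladders, overlapping the middle-aged ones in each group. For Abca4 the log2 fold change was -0.25 ± 0.23 (adjusted p = 0.531) in water-treated, -0.61 ± 0.20 (adjusted p = 0.114) in vehicle-treated and -0.52 ± 0.16 (adjusted p = 0.047) in D + Q-treated old bladders. Abca4 gained its vehicle-treated call without vehicle-treated replicate 1 (adjusted p = 0.0478), and lost its D + Q-treated call without middle-aged replicate 1, 2, 3 or 5 or D + Q-treated replicate 2, 3, 4, 5 or 6 (adjusted p from 0.0661 to 0.113). Abca4 lost its D + Q-treated call in a single fit of all 6 groups (adjusted p = 0.264). Gpat2, a glycerol-phosphate acyltransferase, had log2 fold changes of -0.92, -0.11 and -0.56, none of them called.

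Of the 6 noncoding genes, 5, 2 and 3 were called lower. Gm11266, annotated as antisense, measured 1.36 to 2.55 CPM (median 2.38) in young, 1.85, 1.98, 2.33, 2.35 and 2.45 CPM in middle-aged, and 0.654 to 1.29 CPM (median 1.15) in untreated old bladders. The gavaged levels were 0.938, 1.16, 1.19, 1.30 and 1.90 CPM in water-treated, 0.980, 0.986, 1.22 and 1.23 CPM in vehicle-treated, and 0.812 to 1.76 CPM (median 1.25) in D + Q-treated old bladders. The highest water-treated bladder reached the lower end of the middle-aged range, and the vehicle-treated and D + Q-treated bladders did not. For Gm11266 the log2 fold change was -0.74 ± 0.19 (adjusted p = 0.0229) in water-treated, -0.97 ± 0.16 (adjusted p = 0.0132) in vehicle-treated and -0.74 ± 0.18 (adjusted p = 0.0143) in D + Q-treated old bladders. Gm11266 lost its water-treated call without middle-aged replicate 1, 2 or 5 or water-treated replicate 4 (adjusted p from 0.0516 to 0.061). Hotair, a long noncoding RNA of the HOXC cluster, measured 2.37 to 6.94 CPM (median 5.82) in young, 4.49, 5.41, 5.90, 6.22 and 6.26 CPM in middle-aged, and 2.97 to 4.43 CPM (median 3.79) in untreated old bladders. Under gavage it was at 3.04, 3.51, 3.98, 4.00 and 4.37 CPM in water-treated, 3.33, 3.66, 3.96 and 6.00 CPM in vehicle-treated, and 3.21 to 4.74 CPM (median 3.68) in D + Q-treated old bladders. Vehicle-treated replicate 1 and 1 D + Q-treated bladder overlapped the middle-aged group. For Hotair the log2 fold change was -0.58 ± 0.13 (adjusted p = 0.0114) in water-treated, -0.40 ± 0.18 (adjusted p = 0.231) in vehicle-treated and -0.55 ± 0.13 (adjusted p = 0.012) in D + Q-treated old bladders. Hotair gained its vehicle-treated call without vehicle-treated replicate 1 (adjusted p = 0.0212). Hotair lost its water-treated and D + Q-treated calls in a single fit of all 6 groups (adjusted p = 0.0503 and 0.0717). B230312C02Rik fell in all 3 gavaged groups, with log2 fold changes of -0.63, -0.66 and -0.52. Gm12295 was at -0.41 (adjusted p = 0.0402), -0.40 (adjusted p = 0.169) and -0.38 (adjusted p = 0.192), and Gm10432 at -0.78 (adjusted p = 0.0194), -0.64 (adjusted p = 0.162) and -0.45 (adjusted p = 0.154), in the order water, vehicle and D + Q. Gm10432 lost its water-treated call without middle-aged replicate 2 or 3 or water-treated replicate 4 (adjusted p from 0.0501 to 0.0542). Exons of Gm10432 overlap those of Ttc7b on the other strand. Gm536, at -0.31, -0.38 and -0.36, was called in none.

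In 27 of the 45 genes every untreated old bladder was below every middle-aged one, and in the others they overlapped. The choice used these bladders, and no share over all genes is given, so nothing is read from this count. Xlr3b and Capn11 had low and high bladders within a group. Xlr3b, a gene of the X chromosome with close copies, measured 3.70 to 10.3 CPM (median 5.50) in young, 1.13, 1.53, 10.6, 19.5 and 22.0 CPM in middle-aged, and 0.449 to 13.1 CPM (median 2.93) in untreated old bladders. After gavage it was at 1.05, 1.74, 5.34, 5.94 and 7.32 CPM in water-treated, 1.58, 1.97, 4.84 and 5.66 CPM in vehicle-treated, and 1.71 to 9.03 CPM (median 3.59) in D + Q-treated old bladders. Its middle-aged bladders split into 3 high and 2 low ones, and the low ones were below most old bladders. For Xlr3b the log2 fold change was -1.32 ± 0.75 (adjusted p = 0.284) in water-treated, -1.61 ± 0.83 (adjusted p = 0.306) in vehicle-treated and -1.15 ± 0.68 (adjusted p = 0.327) in D + Q-treated old bladders. The copy Xlr3a averaged 3.19 CPM in middle-aged and 2.04 CPM in untreated old bladders, and counts may be split among the copies. Capn11, a calpain protease, measured 1.49 to 9.77 CPM (median 5.94) in young, 2.29, 2.38, 3.46, 8.36 and 8.45 CPM in middle-aged, and 1.46 to 7.18 CPM (median 1.70) in untreated old bladders. Gavaged old mice had 1.48, 1.59, 1.79, 1.96 and 7.07 CPM in water-treated, 1.24, 5.78, 8.45 and 11.6 CPM in vehicle-treated, and 1.68 to 7.90 CPM (median 2.20) in D + Q-treated old bladders. Every group held bladders at 1.24 to 3.46 CPM and bladders at 5.78 to 11.6 CPM with none between, and 3 of 4 vehicle-treated bladders were among the higher. For Capn11 the log2 fold change was -0.83 ± 0.52 (adjusted p = 0.336) in water-treated, 0.46 ± 0.58 (adjusted p = 0.712) in vehicle-treated and -0.67 ± 0.46 (adjusted p = 0.419) in D + Q-treated old bladders. Among the last coding genes, 1700023F06Rik fell in the water (-0.50) and D + Q groups (-0.51) and was at -0.44 (adjusted p = 0.209) with vehicle. Klhl33, a kelch-like protein, was at -0.77 (adjusted p = 0.00591) in water-treated, -0.41 (adjusted p = 0.182) in vehicle-treated and -0.43 (adjusted p = 0.0592) in D + Q-treated bladders. Vwa5b2 and Mansc4 were called in none. For Mansc4 the log2 fold change was -0.346 in water-treated, -0.295 in vehicle-treated and -0.233 in D + Q-treated bladders. After Sox12, Mansc4 had the smallest difference over the 15 gavaged bladders (-0.28).

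Comparisons among the gavaged groups, which use none of the groups compared in the choice, ask whether D + Q or its vehicle moved these genes in old mice. By edgeR's quasi-likelihood test, 0 of the 45 genes differed between D + Q-treated and vehicle-treated bladders, where 0% of 17267 genes were called. The count was also 0 for D + Q against water (0% of 17161 genes) and for vehicle against water (0% of 17294 genes). At an unadjusted p under 0.05 there were 0, 3 and 2 members, and 722, 1342 and 322 of all genes. DESeq2 called 0 members in each comparison, and 9, 65 and 0 of all genes. The members' median log2 fold change was 0.02, 0.04 and 0.03, and 26, 32 and 28 of the 45 had a value above 0.

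The intervals, which are not adjusted for the number of genes tested, show how closely each difference was estimated. For D + Q over vehicle, the log2 fold change was 0.02 (95% interval -0.20 to 0.24) for Lmcd1, 0.02 (95% interval -0.39 to 0.44) for Pcp4 and 0.00 (95% interval -0.15 to 0.16) for Kcng1. Intervals were wider for Ankrd63, at -0.37 (95% interval -0.91 to 0.17), for Dlgap2, at -0.14 (95% interval -0.67 to 0.39), and for Rab17 and Stc1, at 0.26 (95% interval -0.24 to 0.75) and 0.26 (95% interval -0.23 to 0.75). The widest was that of Capn11, at -1.12 (95% interval -2.34 to 0.10). Over the 45 genes the median distance from the estimate to the end of its interval was 0.419, and for 26 genes the whole interval lay within 0.58 of 0, the size of fall that the choice required. For D + Q over water and vehicle over water, 30 and 21 genes had such an interval. The members with an unadjusted p under 0.05 were Slitrk6 (0.39 (95% interval 0.02 to 0.76)), Klhl33 (0.34 (95% interval 0.03 to 0.65)) and Sox12 (-0.22 (95% interval -0.41 to -0.04)) for D + Q over water, and Lin7b (0.50 (95% interval 0.02 to 0.98)) and Cpxm1 (-0.19 (95% interval -0.39 to -0.00)) for vehicle over water. Their smallest adjusted p was 0.583 and 1, respectively.

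**Figure D5:**
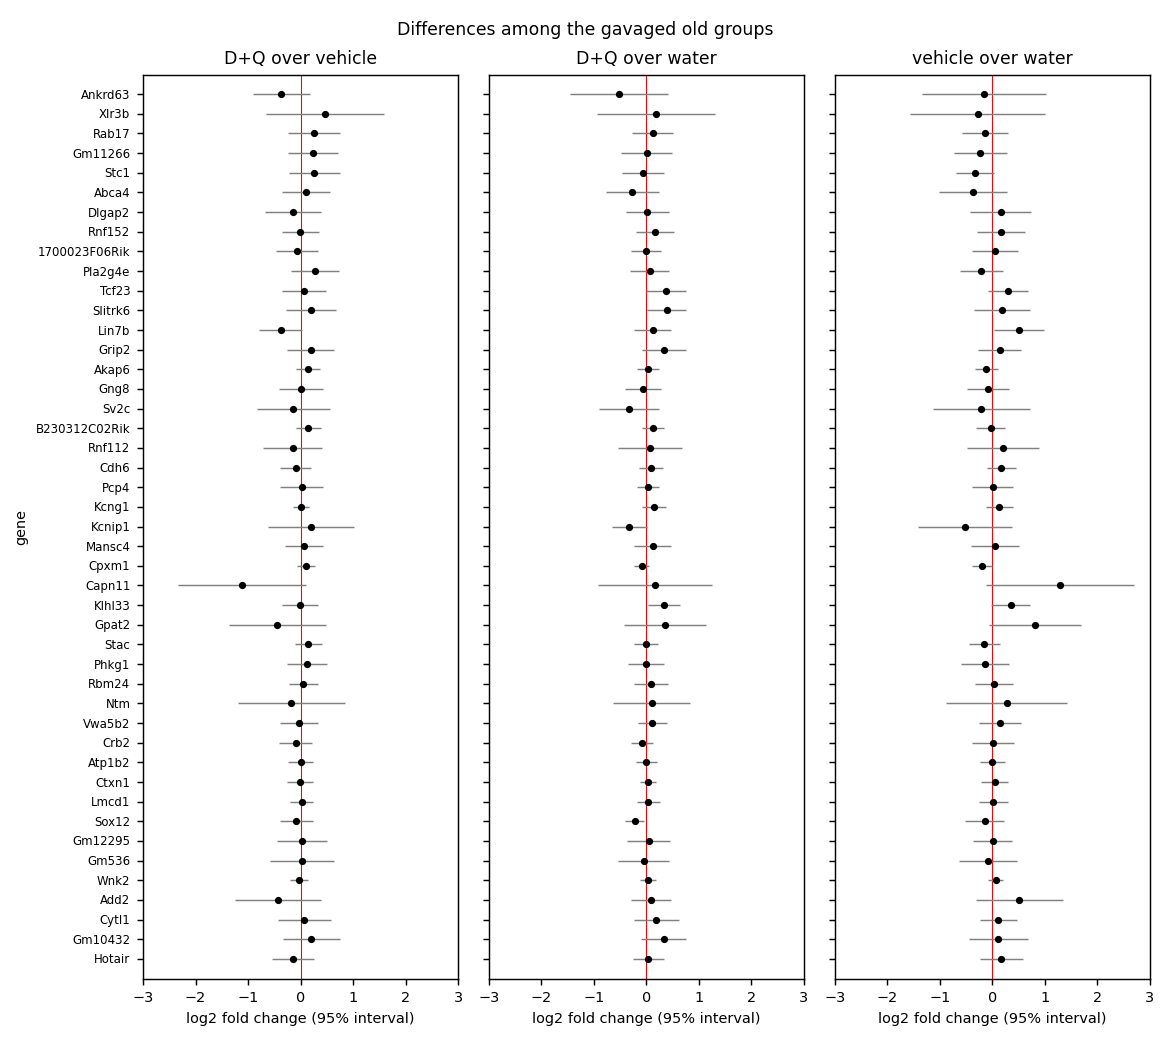
Log2 fold change with its 95% interval for each of the 45 genes in the 3 comparisons among gavaged old groups. The points scatter on both sides of 0 (medians 0.02, 0.04 and 0.03) and none has an adjusted p under 0.05.

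Lists of related genes place the members beside the rest of their pathways in untreated old against middle-aged bladders, where 13.0% of genes tested were called higher and 11.0% lower. Of 14 detrusor genes, 6 fell (Myh11, Mylk, Smtn, Lmod1, Myocd and the member Pcp4) and 0 rose, with a median log2 fold change of -0.13. Of 20 potassium-channel genes, none of them a member, 6 fell, among them Kcna2, Kcnh2 and Kcnk3, and 2 rose. Of 19 genes of calcium and sodium channels 2 fell and 2 rose, with a median of -0.04. The calcium and NFAT response list had 1 lower and 2 higher of 15. The myogenic list had 1 lower and 0 higher of 10 tested, and the skeletal muscle list 3 lower and 4 higher of 17 tested. Of 21 synapse and scaffold genes tested, 6 fell, 4 of which were the members Ankrd63, Dlgap2, Lin7b and Sv2c that the rule had chosen on this contrast, and 2 rose. Of 24 HOX and developmental factors tested, 11 fell, among them Hoxa10, Hoxa13, Hoxd10 and Tbx2, and 0 rose. Of 16 urothelial genes, 4 fell (Upk1a, Upk2, Upk3a and Gata3) and 0 rose. Of 16 genes of small GTPases and vesicle transport, 3 fell, including the member Rab17, and 2 rose. Of 21 lipid and retinoid genes tested, 4 fell, including the member Pla2g4e, and 1 rose. The 12 neuronal markers gave 6 genes that could be tested, with 1 lower (Uchl1) and 2 higher. The 12 summed to 170 to 358 CPM in young, 290 to 319 CPM in middle-aged and 186 to 260 CPM in untreated old bladders. In gavaged old bladders they summed to 241 to 335 CPM (water), 205 to 311 CPM (vehicle) and 222 to 393 CPM (D + Q). The part of nerve content in the members' levels was not tested.

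The position, length, level and spread of the members follow as a description. They lie on 17 chromosomes, with 8 of 45 (17.8%) on chromosome 2, which holds 7.74% of the expressed genes, and 5 (11.1%) on chromosome 11, which holds 8.23%. The 2 nearest members, Ankrd63 and Pla2g4e, were 1462449 bases apart on chromosome 2. By GENCODE annotation 39 of the 45 code for protein. Their summed exon length had a median of 4197 bases, against 4335 bases for all expressed genes, while their level was lower, with a median of 6.76 against 27.4 CPM in middle-aged bladders. The spread between bladders was larger than that of all genes, with a median SD of 0.20 against 0.10 on the log2 scale in middle-aged and 0.27 against 0.09 in untreated old bladders. The choice used the level at 10 months and the bladders of both groups, so nothing is read from level or spread. Exons of 10 members overlapped those of another gene, 9 of them on the other strand. The kit kept strand, but whether counting used it is not given in the sources used here, so counts of these 10 genes may hold reads of their neighbours.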

How the data were processed

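Total RNA of 32 whole bladders was sequenced from a stranded kit. The authors deposited whole-number counts per gene, made with STAR 2.7.3 and the Subread counter on mm10 (per the labels' processing notes), and the total exon length of every gene (bases) as a further deposited column. A second deposited table of normalized expression was not used. The members were chosen with TMM CPM over all bladders, and they, the roles and the gene lists were chosen with earlier results of these data known. Comparisons of 2 groups used edgeR 4.0.16 in R 4.3.3 on those counts (TMM, filterByExpr, quasi-likelihood test, Benjamini-Hochberg adjusted p under 0.05 over all genes tested), each fit holding only its 2 groups, with n of 4 to 6 bladders. Intervals at 95% used the fit's SE and degrees of freedom. TPM were computed from counts and exon lengths. Members given with all values are the 8 with the largest fall from 10 to 26 months, the 4 highest in TPM, those on a list, the 3 highest and 3 lowest in gavaged mice, and those at the limit. For Mansc4, Gm536 and Gm10432 only fold changes are given. DESeq2 1.42.0, no filter on low counts, a single fit of all groups, a replicate block (by the number in the titles and, chosen after seeing the data, in the column names) and each bladder left out were the alternatives. The same replicate number in 2 groups was not taken to mark a pair of bladders. Scripts were tested on simulated data. Of 32285 genes, 127 had no symbol.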

Additional observations from a re-analysis of the deposited data

Results flagged for a closer look

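Within 132 sets of values (21 genes and the median over the 45 genes, in each of 6 groups), 2 had a bladder far from the rest of its group by Dixon's test at 95%, where chance gives about 1 in 20. Ankrd63 was at 0.782 CPM in D + Q-treated replicate 1, with the nearest D + Q-treated bladder at 1.45 CPM. Dlgap2 was at 2.96 CPM in water-treated replicate 5, with the nearest water-treated bladder at 1.95 CPM.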

How the results depend on the processing

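Of the rule's settings, a pseudocount of 1 CPM left 25 genes, all among the 45, while DESeq2 size factors left 37, CPM by library size alone 35 and TMM over the 17 bladders of the rule 39. Leaving out single bladders gave 35 to 57 genes, and 14 of the 45 were kept in all 17 such sets (Hotair in 8 of them). Without middle-aged replicate 2 or 3, 34 of the 45 were kept, the fewest of these sets. Members called lower against middle-aged bladders numbered 25 to 33 (water), 6 to 23 (vehicle) and 23 to 30 (D + Q) without single bladders. With DESeq2, no filter and a single fit of all groups they were 35, 28 and 25 (water), 23, 17 and 19 (vehicle), and 34, 28 and 20 (D + Q). No member was called among the gavaged groups under any of these settings. The titles and the column names number some bladders differently, and nothing says that a number marks a shared cage or day. Deviations from the group means in bladders of the same title number had correlations from -0.322 to 0.196. For column numbers, used after seeing the data, correlations ran from -0.258 to 0.196. In D + Q against vehicle, column numbers gave 0.0963 to 0.196, with 3 of 4 bladders correlating best with their own number. A replicate block gave 30, 3 and 30 calls by title and 27, 9 and 29 by column number, moving the vehicle count from 16 to 3 or 9. No named gene changed direction while called. Genes near 1 CPM rest on few counts, with a lowest count of 5 for Sv2c. Between D + Q and vehicle, with 4 vehicle-treated bladders, unadjusted intervals reached a median of about 0.42 on the log2 scale from the estimate. That distance is not a limit of detection, because a call also required adjustment over all genes tested. The smallest difference that could be called was not computed.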

Other observations

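Cell-cycle and lymphoid genes went the other way in the same bladders. In untreated old against middle-aged bladders, 14 of 15 cell-cycle genes, all 8 B and plasma cell markers, all 8 T cell markers and 7 of 8 macrophage markers rose by edgeR's quasi-likelihood test. The median log2 fold change was 1.12 for the cell-cycle list and 4.51 for the B and plasma cell list. T cell markers summed to 12.0 to 15.4 CPM in middle-aged, 45.6 to 106 CPM in untreated old and 15.9 to 95.4 CPM in vehicle-treated old bladders. Endothelial markers had 4 of 15 lower (Cdh5, Cldn5, Sox17 and Tie1), and fibroblast markers 1 lower and 1 higher of 15.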
